A study of Mus musculus with 6 samples.

Results

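Homologous recombination repairs broken chromosomes by copying the intact sister DNA molecule. The MRN complex (Mre11a, Rad50 and Nbn) holds and trims the broken ends. Brca1 promotes that trimming, and with Palb2 and Brca2 it also acts on the exposed strand. Rad51c and the DNA translocase Rad54l assist strand invasion, while Rad52 anneals complementary strands. The 9 genes were read from all probe sets whose only gene symbol in the platform's annotation is one of these names, which gave 19 of 45037 probe sets (9 of 18193 genes). Rad52 was chosen by its measured values, since it was lower in TNKO hosts in these same arrays. Its values are therefore a description and carry no test, while the other 8 genes, with 17 probe sets, were listed for their function.

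RNA came from tumours that GLMT1 cells, a line named after a lung metastasis of the GRS/A mouse strain, formed under the back skin of male hosts. The hosts of 3 tumours were tenascin-C-deficient GRS/A mice, given as GRS/A-TgH(TnC) and labelled TNKO, and those of the other 3 were wild-type GRS/A mice, labelled WT. All hosts were taken at 8 weeks of age and are labelled 10 weeks old, and the inoculated line was the same in both groups. The genotype belongs to the host, each tumour holds host cells too, and in such bulk RNA fewer cells of a type and less RNA per cell cannot be told apart. The labels call the 3 tumours of a group biological replicates with 3 mice per group.

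The deposited values differ very little between arrays, with a median probe set spanning 5.46 millionths of a log2 unit over the 6 arrays. Values below are therefore given as the level of a probe set in log2 units, and as deviations of each array from that level in millionths of a log2 unit. A residual SD is the scatter of one probe set around its 2 group means. Such differences cannot be read as folds of RNA, and the number of arrays limits the precision. The array of TNKO tumour 3 stood apart, with a median over all probe sets 2305.3 millionths above the median of the arrays, against -92.8 to 87.7 in the other 5. Krt8, an epithelial keratin, stood at a level of 11.45, Col1a2, a fibroblast collagen chain, at 13.67, Lyz2 of myeloid cells at 11.50 and Cdh5 of endothelium at 7.77. Of the 10 epithelial markers 7 stood above the median level of all probe sets (6.57), and Cldn4 (6.18), Krt19 (6.07) and Esrp1 (5.84) below it. Fibroblast markers stood above it in 10 of 10, endothelial markers in 7 of 10 and leukocyte markers in 9 of 11.

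Promoter windows from RefSeq (GRCm38.p6), 250 bases before to 50 after a transcription start, matched 7 of the 9 genes. Rad50 and Nbn had none in that table. The windows of Rad52, the gene this group is built around, of Rad51c, whose probe sets went opposite ways, and of Brca2 are shown 5′ to 3′ on the gene's strand. Capitals mark an E2F-like motif, the letters TTTCCCGC, TTTCGCGC, TTTGCCGC or TTTGGCGC on either strand, which E2F factors of the cell cycle can bind.
Rad52 promoter, chr6:119902448-119902747, plus strand: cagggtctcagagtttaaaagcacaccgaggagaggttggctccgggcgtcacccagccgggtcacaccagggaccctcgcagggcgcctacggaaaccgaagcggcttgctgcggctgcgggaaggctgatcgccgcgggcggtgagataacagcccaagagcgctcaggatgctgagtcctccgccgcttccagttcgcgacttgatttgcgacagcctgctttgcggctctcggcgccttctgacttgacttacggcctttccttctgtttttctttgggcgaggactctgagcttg
Rad51c promoter, chr11:87404457-87404756, minus strand: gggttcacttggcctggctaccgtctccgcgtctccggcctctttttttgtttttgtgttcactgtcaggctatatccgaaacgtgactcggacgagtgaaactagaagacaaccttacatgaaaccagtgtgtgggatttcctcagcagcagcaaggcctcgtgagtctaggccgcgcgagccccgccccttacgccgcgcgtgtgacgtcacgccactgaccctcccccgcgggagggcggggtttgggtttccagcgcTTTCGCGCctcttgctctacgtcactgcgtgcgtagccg
Rad51c promoter, chr11:87404905-87405204, minus strand: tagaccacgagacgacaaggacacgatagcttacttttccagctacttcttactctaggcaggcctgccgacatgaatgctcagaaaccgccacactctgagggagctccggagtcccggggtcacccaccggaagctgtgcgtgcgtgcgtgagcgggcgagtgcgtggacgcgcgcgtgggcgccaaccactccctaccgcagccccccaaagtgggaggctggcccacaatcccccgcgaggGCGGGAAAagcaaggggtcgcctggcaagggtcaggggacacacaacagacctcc
Brca2 promoter, chr5:150522371-150522670, plus strand: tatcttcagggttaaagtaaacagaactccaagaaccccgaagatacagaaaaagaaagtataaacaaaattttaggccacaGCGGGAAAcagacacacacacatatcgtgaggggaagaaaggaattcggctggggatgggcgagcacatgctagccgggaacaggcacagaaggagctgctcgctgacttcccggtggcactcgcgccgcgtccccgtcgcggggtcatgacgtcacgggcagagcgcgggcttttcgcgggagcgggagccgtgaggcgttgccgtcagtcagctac
One of the E2F-like words occurred in 3 of the 9 member windows, against 744 of 32851 windows in all (2.265%). These were both Rad51c windows, with TTTCGCGC at base 12 after one start and TTTCCCGC on the opposite strand from base -5 of the other, and the Brca2 window, with TTTCCCGC on the opposite strand from base -168. The Rad52 window held none of these letters, nor did those of Rad54l, Mre11a, Brca1 and Palb2. The CHR motif TTTGAA, found in promoters of late cell cycle genes, was in 0 of the 9 windows, against 17.89% of all windows. The 9 windows came from 7 genes, and those of Rad54l overlap almost fully. Median GC content was 59.67% in member windows, against 52.67% in all windows. A match is a string of letters and says nothing on whether a factor binds there.

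Rad52 was lower in tumours of TNKO hosts in both of its probe sets. The brighter, 1426296_at, designed on a full-length cDNA clone, had a level of 7.09. It deviated by -67.9, -47.4 and -54.0 millionths in TNKO tumours 1, 2 and 3, against 56.2, 46.3 and 66.7 millionths in WT tumours 1, 2 and 3. Every TNKO tumour lay below every WT tumour, and the gap between the groups was wider than the scatter within either. The group means were -56.4 ± 10.5 millionths in TNKO hosts and 56.4 ± 10.2 millionths in WT hosts (SD, n = 3 each), a TNKO minus WT difference of -113 millionths (SE 7.88), or -10.9 residual SDs. The dimmer probe set, 1416602_a_at, designed on a RefSeq mRNA, had a level of 6.90 and deviated by -3.66, -7.48 and -7.81 millionths in TNKO tumours, against 2.99, 8.70 and 7.27 millionths in WT tumours. Again the groups did not overlap. The difference was -12.6 millionths (SE 2.04) or -4.75 residual SDs, smaller than in the brighter probe set on either scale. Across the 6 arrays both probe sets had a Pearson r of 0.91, given as a description since they share the arrays and the RNA. Over all probe sets the groups did not overlap in 28.0%, and 13.8% had all TNKO tumours lower. The brighter probe set spanned 134.6 millionths, and 6.02% of all probe sets spanned more. The dimmer spanned 16.5 millionths, and 24.7% of all probe sets spanned more.

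**Figure D1:**
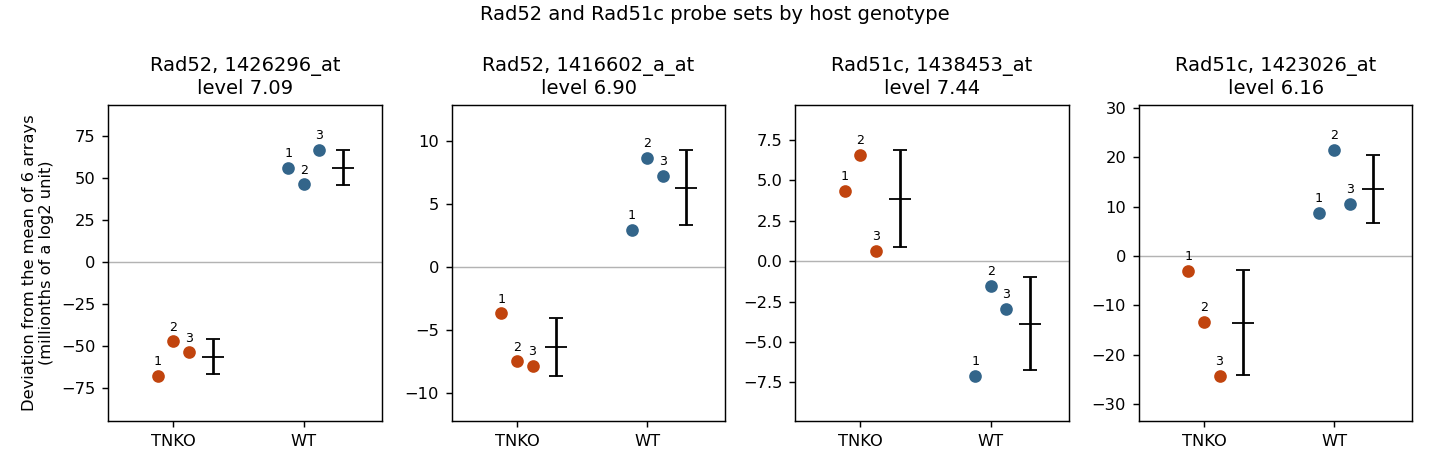
Deviation of each tumour from the mean of the 6 arrays (millionths of a log2 unit, vertical axis, different range in each panel) for both Rad52 and both Rad51c probe sets, with TNKO hosts on the left and WT hosts on the right. Points are tumours with their replicate numbers, and bars are mean ± SD (n = 3); both Rad52 panels and the dimmer Rad51c panel (1423026_at) have TNKO below WT, and the brighter Rad51c panel (1438453_at) has TNKO above WT.

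The direction of Rad52 held only on some scalings of the arrays. Subtracting each array's median brought the median TNKO minus WT difference over the array to -0.000764 log2 units, and quantile normalization brought it to -0.000538. Both shifts exceed every member's own difference, so that all 19 probe sets became lower in TNKO hosts, with TNKO tumour 3 the lowest array in 19 of 19. Subtracting medians moves all probe sets of an array alike, so differences relative to that common shift stay as deposited by construction. They were -113 millionths for the brighter Rad52 probe set and -12.7 for the dimmer. After quantile normalization the brighter one stood at -170 relative to the common shift, and the dimmer one at 16.7, higher in TNKO hosts. Without TNKO tumour 3 the brighter probe set differed by -114 millionths as deposited and -106 with medians subtracted, while quantile normalization of those 5 arrays turned it to 146 millionths higher in TNKO hosts and the dimmer one to 401 millionths above the common shift. Measures of RNA and hybridisation moved with the groups too. Control probe sets at the 5′ ends of mouse transcripts were lower in all 3 TNKO tumours in 4 of 5, with -402 millionths for beta-actin and -69.9 for Gapdh, and hybridisation controls were higher in all 3 TNKO tumours in 16 of 18. Their part in the Rad52 difference was not tested.

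**Figure D2:**
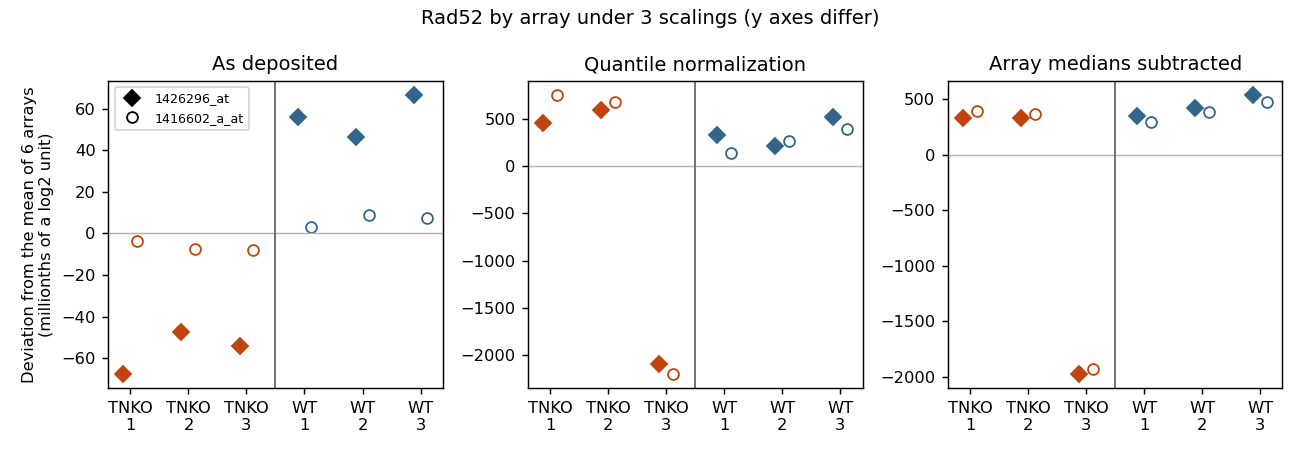
Rad52 in each array (TNKO 1 to 3 left of the line, WT 1 to 3 right of it) as deposited, after quantile normalization and after subtraction of array medians, as deviation from the mean of the 6 arrays in millionths of a log2 unit, with a different vertical range in each panel. Diamonds are the brighter probe set 1426296_at and open circles the dimmer 1416602_a_at; as deposited all TNKO values lie below 0, while after either scaling TNKO tumour 3 lies between -2203 and -1933 and the other 5 tumours lie above 0.

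Host tissue in the tumours varied between arrays. Skeletal muscle markers were lower in TNKO hosts in 12 of 12 genes, with a summed level of 77.6, 78.3 and 83.8 in TNKO tumours 1, 2 and 3, against 82.5 to 84.1 in WT tumours. Adipocyte markers were higher in 8 of 8, with 58.5, 57.8 and 56.1 in TNKO tumours and 54.8 to 56.6 in WT tumours. Hair and epidermis markers summed to 80.0 in TNKO tumour 3, against 62.3 and 62.7 in TNKO tumours 1 and 2 and 62.2 to 62.4 in WT tumours. Of the 10 genes of that list 6 had the higher mean in TNKO hosts, among them Krtap8-1, at 12.6 in TNKO tumour 3. The other 4, Krt1, Krt10, Krt15 and Lor, were lower in mean and stood at 6.58, 6.23, 6.22 and 6.6 in each TNKO tumour. In each of these lists TNKO tumour 3 lay apart from TNKO tumours 1 and 2. The part of host tissue in the Rad52 difference was not tested. As deposited, endothelial markers were higher in 10 of 10 genes, fibroblast markers in 8 of 10, leukocyte markers in 9 of 11 and epithelial markers in 5 of 10, while 42.4% of all genes had the lower mean in TNKO hosts. With medians subtracted 0 of 10 endothelial, 2 of 10 fibroblast, 1 of 11 leukocyte and 1 of 10 epithelial markers were higher, and after quantile normalization 1, 2, 2 and 1. When TNKO tumour 3 was left out, subtracted medians gave 10 of 10, 8 of 10, 10 of 11 and 4 of 10 higher. In the same order, quantile normalization without that tumour gave 9, 8, 7 and 5. The muscle and adipocyte counts were the same under both scalings. None of the genes of these 7 lists passed adjustment. Above the median level of all probe sets (6.57) stood 5 of 12 muscle, 5 of 8 adipocyte and 5 of 10 hair and epidermis markers.

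Rad51c, which works in complexes that assist strand invasion, was measured by 2 probe sets that went opposite ways. The brighter, 1438453_at, designed on an expressed sequence tag, had a level of 7.44 and deviated by 4.33, 6.59 and 0.645 millionths in TNKO tumours, against -7.09, -1.54 and -2.94 millionths in WT tumours. All TNKO tumours lay above all WT tumours, by 7.71 millionths on average (SE 2.26, adjusted p = 0.178 by limma over all probe sets). The dimmer, 1423026_at, designed on a RefSeq mRNA, had a level of 6.16 and deviated by -3.00, -13.3 and -24.2 millionths in TNKO tumours, against 8.65, 21.4 and 10.5 millionths in WT tumours. Here all TNKO tumours lay below all WT tumours, with a TNKO minus WT difference of -27.0 millionths (SE 6.84, adjusted p = 0.148). Neither difference passed the threshold of 0.05, and the difference between both probe sets was not tested. The level of 1423026_at lies below the median level of all probe sets (6.57), and how much of it is Rad51c RNA was not tested. Their Pearson r over the 6 arrays was -0.58. Against the brighter Rad52 probe set the dimmer Rad51c probe set had an r of 0.82 and the brighter an r of -0.84. Since Rad52 was chosen for its group difference, these r largely restate the group differences of the Rad51c probe sets.

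Rad54l, a translocase that moves along DNA during strand exchange, had 4 probe sets, all with a higher group mean in TNKO hosts as deposited and all lower after either scaling. The brightest, 1450862_at, had a level of 7.84 and deviated by 0.439, 1.44 and -0.881 millionths in TNKO tumours, against 1.46, -0.637 and -1.83 millionths in WT tumours. The groups overlapped, with a difference of 0.666 millionths (SE 1.12, adjusted p = 0.793). Only 1423124_x_at separated the groups, at 4.05, -0.512 and 1.41 millionths in TNKO tumours and -1.34, -2.82 and -0.796 millionths in WT tumours. Its difference of 3.30 millionths (SE 1.38) had an adjusted p of 0.28. The other 2 probe sets differed by 1.94 and 2.41 millionths. The 4 probe sets shared a direction more than a pattern, with pairwise r between 0.012 and 0.83, and 3 of them were designed on expressed sequence tags.

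The 5 probe sets of the MRN complex overlapped between the groups in 5 of 5, with adjusted p between 0.439 and 0.984 by limma. Mre11a, the nuclease, deviated in its brighter probe set (1416748_a_at, level 7.56) by 1.52, 0.495 and -1.19 millionths in TNKO tumours, against 0.169, 0.637 and -1.63 millionths in WT tumours, a difference of 0.55 (SE 1.00). Its other probe set, 1441990_at, differed by -4.43 millionths (SE 2.88, adjusted p = 0.458), with WT tumour 1 the highest array. Rad50, the ATPase that tethers ends, had its brighter probe set (1422630_at, level 8.42) at -1.49, 0.151 and -3.09 millionths in TNKO tumours and at 4.87, -0.0027 and -0.442 millionths in WT tumours. WT tumour 1 was again the highest, and the difference of -2.95 millionths (SE 1.83) had an adjusted p of 0.439. The dimmer Rad50 probe set, at a level of 5.80, differed by 0.147 millionths. Nbn, the subunit that signals to the ATM kinase, lay at 1.38, 0.233 and -1.33 millionths in TNKO tumours and at 0.425, 4.62 and -5.32 millionths in WT tumours (1448746_at, level 7.35). Its TNKO values fell inside the spread of the WT values, with a difference of 0.188 millionths (SE 2.80, adjusted p = 0.984).

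Brca1, the ubiquitin ligase subunit that promotes end resection, had 4 probe sets, 2 higher and 2 lower in group mean. The brightest, 1424629_at with a level of 8.11, deviated by 6.43, 7.16 and -2.54 millionths in TNKO tumours, against -0.529, 0.648 and -11.2 millionths in WT tumours. TNKO tumour 3 fell among the WT tumours, and the difference of 7.36 millionths (SE 4.57) had an adjusted p of 0.44. The dimmest, 1424630_a_at with a level of 6.12, lay at -4.72, -0.891 and -4.00 millionths in TNKO tumours and at 5.43, 2.52 and 1.66 millionths in WT tumours. Every TNKO tumour was below every WT tumour there, by a difference of -6.41 millionths (SE 1.54, -3.20 residual SDs, adjusted p = 0.139), the lowest adjusted p among the 17 probe sets. The level of 1424630_a_at lies below the median level of all probe sets (6.57), and how much of it is Brca1 RNA was not tested. Probe set 1427698_at differed by 4.24 millionths (adjusted p = 0.279) and 1451417_at by -0.182 (adjusted p = 0.817). Pairwise r among the 4 ran between -0.65 and 0.64. All 4 became lower in TNKO hosts when medians were subtracted or quantiles normalized.

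Brca2, a tumour suppressor of this pathway, and Palb2, which links it to Brca1, were each measured by 1 probe set. Brca2 (1419076_a_at, level 7.59) deviated by 5.26, -0.672 and -1.54 millionths in TNKO tumours, against -0.917, 0.238 and -2.38 millionths in WT tumours. TNKO tumour 1 alone was high, and the difference of 2.04 millionths (SE 2.13) had an adjusted p of 0.652. Palb2 (1434808_at, level 7.51) lay at -0.12, 1.25 and 0.0985 millionths in TNKO tumours and at 0.0945, -0.28 and -1.04 millionths in WT tumours, a difference of 0.816 millionths (SE 0.545, adjusted p = 0.47). Both groups overlapped in either gene.

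**Figure D3:**
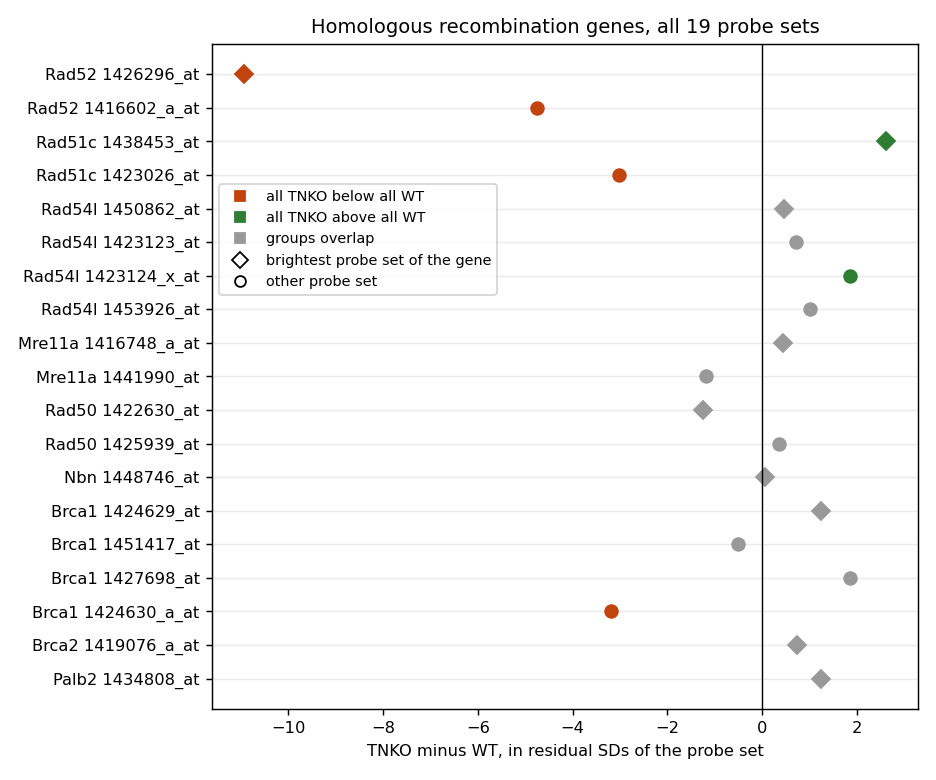
Difference TNKO minus WT of each of the 19 probe sets, in residual SDs of the probe set (horizontal axis), with the genes running down the page. Diamonds are the brightest probe set of a gene, circles the others, and colours say whether the groups overlap; Rad52, for which the group was chosen, lies at -10.9 and -4.75, and the other 17 lie between -3.20 and 2.62.

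Of the 17 probe sets other than Rad52, 0 passed adjustment over all probe sets by limma, against 0.175% of all probe sets (0.133% lower and 0.0422% higher). At an unadjusted p under 0.05 there were 3 of 17 (2 lower and 1 higher), against 20.3% of all probe sets (10.8% lower and 9.53% higher). The groups did not overlap in 4 of 17 (23.53%), 2 lower and 2 higher, a share near the 28.0% of all probe sets (13.8% lower and 14.2% higher). As deposited 12 of the 17 had a higher and 5 a lower group mean in TNKO hosts, while all 17 were lower after either scaling. Over all probe sets 45.6% had the lower mean in TNKO hosts. Their median difference was 0.46 residual SDs, against 0.17 over all probe sets. Without TNKO tumour 1 the lower group means numbered 9 of 17, and without WT tumour 3 they numbered 8. WT tumour 3 was the lowest array in 8 of the 19 member probe sets (19.6% of all probe sets) and WT tumour 1 the highest in 6 (14.4% of all). Where a gene had several probe sets, 9 of 16 pairs shared a direction and 7 did not, and 6 of those 9 belonged to Rad54l. By the brightest probe set alone, 1 of the 8 genes was lower as deposited (42.4% of all genes) and the groups did not overlap in 1, Rad51c (26.1% of all genes).

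**Figure D4:**
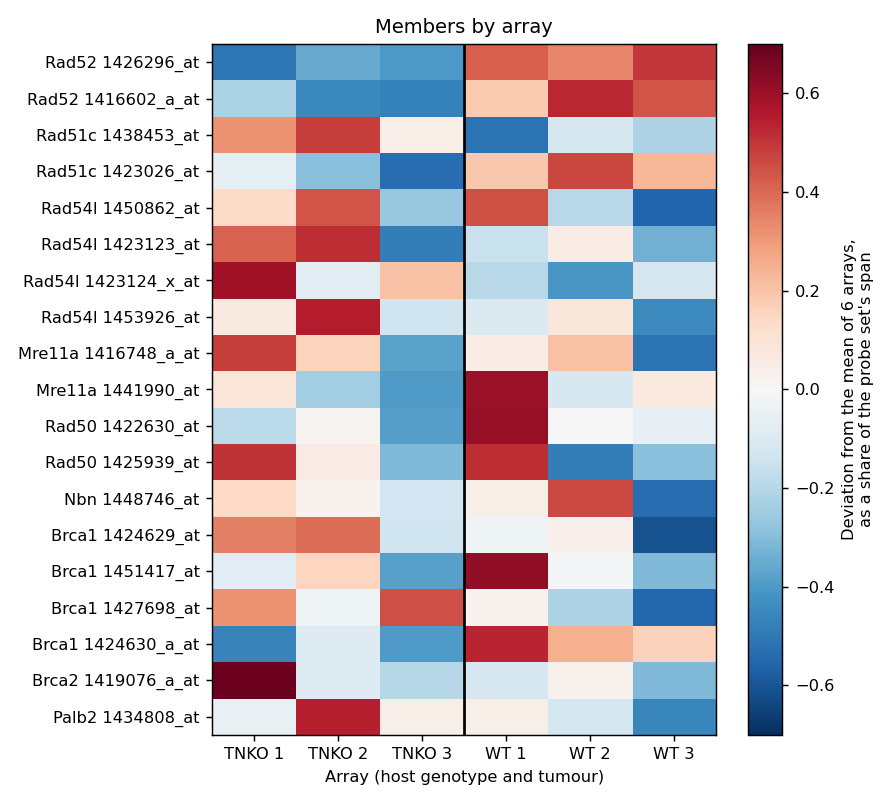
Deviation of each array (columns, TNKO tumours left of the line and WT tumours right of it) from the mean of the 6 arrays, divided by the span of the probe set, for the 19 probe sets (rows). Red is above the mean and blue below; the 2 Rad52 rows are blue in all TNKO tumours and red in all WT tumours, and WT tumour 3 is the lowest array in 8 of the 19 rows.

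Other genes of DNA repair were read from their brightest probe sets, and 0 of 100 genes in 5 lists passed adjustment, against 0.121% of all genes (0.077% lower and 0.044% higher). Among other homologous recombination genes 20 of 27 had a higher group mean in TNKO hosts on the deposited scale, while 42.4% of all genes had the lower mean. An unadjusted p under 0.05 went to 7 higher genes and 0 lower ones, against 9.99% of all genes higher and 8.43% lower. Sem1, a small partner of Brca2, differed by 1.44 millionths (SE 0.245, adjusted p = 0.0971), Rpa3, a subunit of the single-stranded DNA binding protein RPA, by 43.6 (SE 7.63, adjusted p = 0.0994) and Xrcc3, which forms a complex with Rad51c, by 8.69 (SE 2.06, adjusted p = 0.137). The groups did not overlap in 1 lower and 8 higher genes of the list, against 11.1% and 15.0% of all genes. The median over the list was 1.23 residual SDs, against 0.28 over all genes. Fanconi anaemia genes, which repair DNA crosslinks, were higher in 11 of 14, with 3 at an unadjusted p under 0.05. These were Fancc (7.40 millionths, adjusted p = 0.109), the nuclease gene Ercc1 (38.5, adjusted p = 0.186) and Fancd2 (1.76, adjusted p = 0.229).

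Of the genes of end joining, the route that rejoins breaks without a template, 11 of 16 were lower as deposited. Over all genes 42.4% had the lower mean in TNKO hosts. At an unadjusted p under 0.05 there were 3 lower and 1 higher, against 8.43% of all genes lower and 9.99% higher. The polymerase gene Polm differed by -110 millionths (SE 19.8, adjusted p = 0.101), the ligase gene Lig3 by -8.83 (adjusted p = 0.144) and Poll, another polymerase gene, by 6.28 (adjusted p = 0.145). DNA damage signalling genes were lower in 8 of 19, with 4 lower and 0 higher at an unadjusted p under 0.05. Gadd45a, a stress-induced growth arrest gene, differed by -589 millionths (SE 80.9, adjusted p = 0.0758), Rad1, part of a checkpoint clamp, by -62.5 (SE 8.82, adjusted p = 0.0784) and Mdm2, the p53 ubiquitin ligase gene, by -23.9 (SE 4.08, adjusted p = 0.0974). Proliferation genes were higher in 20 of 24, among them Mki67 (13.9 millionths, adjusted p = 0.127), the cyclin gene Ccna2 (43.8, adjusted p = 0.148) and the replicative helicase gene Mcm7 (115.5, adjusted p = 0.188). Under both scalings of all 6 arrays all 100 genes of these lists were lower in TNKO hosts. With 1 array left out 3 to 9 proliferation genes were lower, 8 without TNKO tumour 2 and 9 without WT tumour 3. Both scalings without TNKO tumour 3 gave 11 (quantile) and 0 (medians) of 24. Of the 16 end joining genes 9 to 11 were lower with 1 array left out, and 2 under either scaling without TNKO tumour 3. Of the 19 damage signalling genes 6 to 11 were lower with 1 array left out, and 10 (quantile) and 3 (medians) under the scalings without TNKO tumour 3. For the 27 other homologous recombination genes these counts were 6 to 10, 10 (quantile) and 0 (medians). For the 14 Fanconi anaemia genes they were 2 to 3, 2 (quantile) and 0 (medians).

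**Figure D5:**
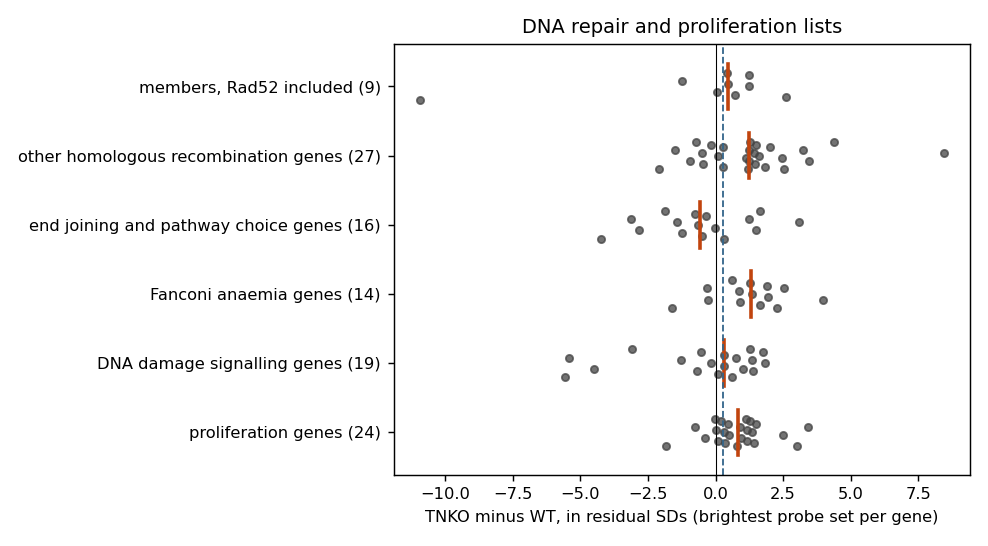
Difference TNKO minus WT in residual SDs (horizontal axis) of the brightest probe set of each gene, for the 9 members and 5 lists, with the number of genes in brackets. Points are genes, the upright bar is the median of a list and the dashed line the median of all genes (0.28); Rad52, chosen for its low TNKO values, lies at -10.9, the genes of the 5 lists lie between -5.55 and 8.45, and all genes lie between -19.8 and 19.6.

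The 5 genes whose values over the 6 arrays were most like those of the brighter Rad52 probe set, out of 11288 genes above the median level, were Nmrk1, Adsl, Hps5, Vim and Ankrd52, with Pearson r between 0.9943 and 0.9951. Since Rad52 was chosen for a difference between the groups, genes picked this way share that difference. Nmrk1, a nicotinamide riboside kinase gene, differed by -65.1 millionths, at -38.7, -30.0 and -29.0 in TNKO tumours and 28.0, 25.5 and 44.2 in WT tumours. Adsl, an enzyme of purine synthesis, differed by -14.4 millionths and Vim, the intermediate filament of mesenchymal cells, by -13.2. Among the other 17 member probe sets the nearest was the dimmest Brca1 probe set, at an r of 0.90. The 5 genes are the closest of 11288, so a lower r among 17 probe sets says nothing on Rad52 and its pathway.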

How the data were processed

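The authors deposited 1 value per probe set and array, taken here as log2 from the range of 5.20 to 13.85. The log base, the summarization, the normalization and any background correction were not given in the sources used here. The submitters' processing notes name R 2.7.2. Per the labels' protocols, 100 ng of total RNA were amplified with a 3′ in vitro transcription kit.

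Without 64 control probe sets, 45037 were tested, of which 34945 had 1 gene symbol (platform annotation of 2016), 932 several and 9160 none. Arrays give no read depth. TNKO minus WT was fitted with limma 3.58.1 (lmFit, eBayes) in R 4.3.3, two-sided, with Benjamini-Hochberg adjustment over all 45037. The brightest probe set stood for a gene.

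The members and lists were chosen with earlier results of these data known. Genes named were all members, per list the 3 with the lowest p, Mki67, the brightest gene of cell type lists, and the 5 genes most like Rad52. Cldn4, Krt19, Esrp1, Krt1, Krt10, Krt15 and Lor were chosen after their values were seen. Of 107 listed repair and proliferation genes 100 were measured.

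Data were simulated from these probe sets with normal noise of equal spread in every array, so TNKO tumour 3 did not stand apart there. In them limma recovered 8, 39, 49 and 50 of 50 probe sets changed by 5, 10, 20 and 40 residual SDs. It made 18 false calls among the unchanged probe sets. No slide or scan batch is labelled. Replicate numbers were not taken as pairs, since the labels do not say that they pair samples. As a check, deviations of same-numbered samples had Pearson correlations of 0.18, -0.22 and -0.11. Alternatives were quantile normalization, subtracted array medians, an offset of 16, probe sets above the median level, eBayes with a trend or robust, no moderation, a replicate block, each array left out and the mean over a gene's probe sets. Both scalings without TNKO tumour 3 were added after the values were seen.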

Additional observations from a re-analysis of the deposited data

How the results depend on the processing

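Of the 17 probe sets of the 8 genes other than Rad52, which was not tested, 0 passed adjustment under the alternatives run, while directions depended on the scaling. Over all probe sets the 79 calls (19 higher and 60 lower in TNKO hosts) became 68 (58 higher and 10 lower) with medians subtracted, 0 with quantile normalization (591 at an unadjusted p under 0.05) and 0 with the replicate block (7816), 2 without moderation and 285 of the brighter 22518. They ran from 0 to 73 with 1 array left out, 0 without WT tumour 1 (7144 before adjustment) or WT tumour 3 (6807), 1 without TNKO tumour 1, 4 without TNKO tumour 2 and 6 without TNKO tumour 3, and numbered 1424 with quantile normalization and 100 with medians subtracted, both without TNKO tumour 3. With the replicate block 0 of the 17 were called too.

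Of the 17 probe sets other than Rad52, 5 were lower, against 17 under both scalings, 3 of the 11 above the median level, and 4 to 9 with 1 array left out. With both scalings without TNKO tumour 3 they numbered 8 (quantile) and 1 (medians). In millionths, quantile normalization and subtracted medians turned Rad51c to -999 and -756, Rad54l to -665 and -763, Mre11a to -642 and -763, Nbn to -965 and -764, Brca1 to -285 and -756, Brca2 to -567 and -762, and Palb2 to -644 and -763. The mean over probe sets turned Rad51c to -9.66 and Mre11a to -1.94. Quantile normalization without TNKO tumour 3 turned Rad52 to 146, Rad51c to -116 and Nbn to -155, and medians without it turned Rad50 to 5.68. Leaving out 1 array turned Rad54l (-0.08 to 1.56), Mre11a (-0.128 to 1.28), Nbn (-2.43 to 2.54) and Brca2 (-0.087 to 3.31), single reversals being -0.0702 for Mre11a and -0.456 for Nbn without TNKO tumour 1. Rad52 ran from -118 to -107 and was -62.7 as the mean over its probe sets.

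Of the 100 listed genes 0 passed under the alternatives, except 4 with quantile normalization without TNKO tumour 3: Dna2 and Mcm7 higher, Rif1 and Usp1 lower, named after their values were seen. In that setting 1424 of all 45037 probe sets were called. Usp1 was higher as deposited (9.95 millionths) and lower there (-1021), while Dna2, Mcm7 and Rif1 kept their direction. The cause of these changes was not tested.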
